A study of Mus musculus with 1 sample.

Results

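Interferon-induced genes were read in the sorted Ctrl library. The 10 genes were *Ifitm1*, *Ifitm2*, *Ifitm3*, *Ifitm6*, *Isg15*, *Ifit1*, *Ifit3*, *Irf7*, *Bst2* and *Usp18*. They were taken by name, with earlier results of these data known, and all 10 were found among the 54532 Ensembl genes of the table. The values come from 1 RNA-seq library labelled as c-kit+ BM cells, that is, marrow cells with the receptor tyrosine kinase of hematopoietic progenitors on their surface, although genes of mature blood cells were the most abundant in it. The cells were sorted from wild type C57BL/6 mice, and the description adds a gate without lineage markers and Sca-1. The age and number of the mice, and whether Ctrl mice carried the *Vav-Cre* transgene that deletes *Gadd45g* in blood cells of the mutant mice, are not given in the sources used here. The MPN library of *Gadd45g*+/- mice is not analysed here. The steps between the values of the Ctrl library correspond to a total of 15783891 fragments. Genes with a whole number of these steps sum to 15899824, and all genes, with rounding, to 17113323. Most of the mismatch lies in genes without a whole number of steps, and its cause was not tested. On the 10 genes 19590 fragments were recovered. Every value is a level in Ctrl cells, without a replicate and without a test.

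Interferons are secreted proteins that bind receptors on the cell surface. Type I interferons act through the kinases JAK1 and TYK2 on a complex that holds STAT2 and IRF9, which enters the nucleus and binds a DNA element called the ISRE in the promoters of interferon-induced genes. The products block viruses at different steps: IFITM proteins sit in membranes and hinder virus entry, IFIT proteins bind viral RNA, BST2 (tetherin) holds budding viruses at the cell surface, and ISG15 is a ubiquitin-like modifier that is removed again by USP18. Some of these genes, the IFITM genes among them, are also expressed in hematopoietic cells without an added interferon stimulus.

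The promoter sequences are shown first, because the ISRE is the element that the complex described above binds. Binding was not measured here. RefSeq promoter windows of GRCm38.p6, from 250 bases before to 50 bases after the annotated start, were found for 9 of the 10 genes, *Usp18* being the exception. The core letters of the ISRE, GAAANNGAA, were searched on both strands, with overlapping matches counted one by one. They were present in the windows of 6 of the 9 genes, against 8.56% of all 32851 windows. The stretches that hold the matches are printed below 5′ to 3′ on the strand of the gene, with the matched letters in capitals.

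Isg15, chr4:156200871-156200900, minus strand: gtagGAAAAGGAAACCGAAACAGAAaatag
Ifitm2, chr7:140955988-140956017, minus strand: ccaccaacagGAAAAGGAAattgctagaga
Ifitm3, chr7:141010715-141010744, minus strand: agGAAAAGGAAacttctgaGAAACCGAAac
Bst2, chr8:71537580-71537609, minus strand: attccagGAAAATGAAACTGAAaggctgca
Ifit1, chr19:34640780-34640813, plus strand: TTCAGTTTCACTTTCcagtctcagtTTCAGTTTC
Ifit3, chr19:34583374-34583435, plus strand: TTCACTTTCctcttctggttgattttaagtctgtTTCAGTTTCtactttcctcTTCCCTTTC

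*Isg15* held 3 matches that overlap one another, the first beginning 78 bases before the start. *Bst2* held 2 overlapping matches, beginning 130 and 124 bases before it, and *Ifitm2* held 1, at 46 bases. *Ifit1* and *Ifit3* held 3 matches each, all on the strand opposite to the gene and therefore read above as the reverse complement of the core letters. In *Ifitm3* both matches lay after the annotated start, from base 3 and base 20. No match was found in the windows of *Ifitm1*, *Ifitm6* and *Irf7*, which says only that these letters are not in those windows. The windows of *Ifitm1* (140967826 to 140968125) and *Ifitm6* (141016843 to 141017142) lie inside the gene spans given below. The sequence before the outer 5′ ends of these genes was therefore not searched. The letters of another interferon element, the GAS core TTCNNNGAA, were in the windows of *Ifitm6*, *Ifitm3* and *Bst2*, against 8.30% of all windows. A match is a string of letters and not a bound site.

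**Figure D1:**
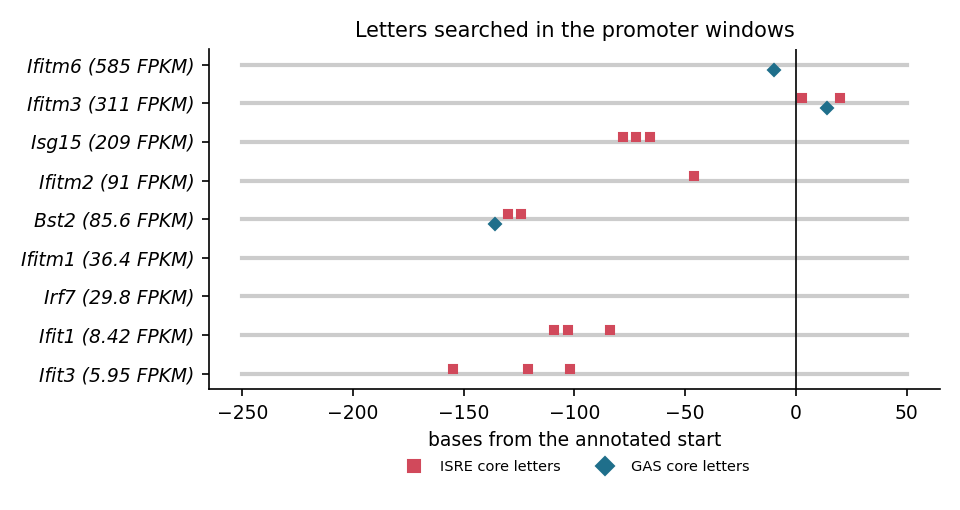
Positions of the ISRE core letters (squares) and GAS core letters (diamonds) in the promoter windows of 9 genes, in bases from the annotated start on the x axis, with the genes in the order of their FPKM. ISRE matches are seen in 6 genes, from *Ifitm3* at 311 FPKM down to *Ifit3* at 5.95 FPKM. *Ifitm6*, the highest gene, shows a GAS match alone, in a window that lies inside its gene span, as does that of *Ifitm1*.

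The sorted label was set beside its markers. *Kit*, the gene of c-kit, had 7.17 FPKM, below the median of protein-coding genes at 1 FPKM or more (8.66 FPKM), and *Ly6a*, the gene of Sca-1, against which the cells were gated, was higher at 28.5 FPKM. The genes ranked 1 to 3 in the library were *S100a9* of neutrophils and *Hba-a1* and *Hbb-bs* of red cells. These values go against the label of sorted c-kit+ progenitors without lineage markers, and the library is called Ctrl here by its label. All 9 mature neutrophil genes reached 1 FPKM (median, 2831 FPKM), as did all 6 erythroid genes (median, 1113 FPKM), all 6 B cell genes (median, 51.9 FPKM), all 5 plasma cell genes (median, 5.87 FPKM) and all 5 T cell genes (median, 5.02 FPKM). Of the monocyte and macrophage genes, 5 of 6 did (median, 36.1 FPKM), with *Ms4a7* at 0.896 FPKM. All 6 genes each of granulocyte-macrophage and of megakaryocyte-erythroid progenitors were present too (medians, 310.0 and 95.5 FPKM), and none of the 5 hematopoietic stem cell genes reached 1 FPKM (0.0510 to 0.964 FPKM). Of protein-coding genes, 46.8% reached 1 FPKM. In such a mixed bulk library, a low level can mean fewer expressing cells or less RNA in each, and the part of each cell type in the interferon-induced genes was not tested.

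All 10 genes reached 1 FPKM, a level that 22.2% of all genes and 46.8% of protein-coding genes reached. FPKM are fragments divided by gene length and library total, so a comparison between genes of the library depends on the length used for each. At 10 FPKM there were 7 of the 10, against 9.37% of all and 21.2% of protein-coding genes. At 100 FPKM there were 3, against 2.06% of protein-coding genes. The genes were chosen with earlier results of these data known, so these shares describe them and test nothing. The median of the 10 was 61.0 FPKM, and the median of protein-coding genes above 0 was 4.22 FPKM. Together the 10 genes took 0.319% of the summed FPKM. The levels spanned a 98.2-fold range, from *Ifitm6* at 584.6 FPKM to *Ifit3* at 5.95 FPKM (exact interval of the ratio, 84.1 to 115). The steps between neighbours in the order were uneven. In FPKM the widest was the 3.54-fold step from *Irf7* down to *Ifit1* (interval, 3.16 to 3.98), which parts the 3 lowest genes from the rest. Next came *Bst2* over *Ifitm1* (2.35-fold), *Isg15* over *Ifitm2* (2.29-fold) and *Ifitm6* over *Ifitm3* (1.88-fold). *Ifitm2* over *Bst2* (1.06-fold; interval, 0.976 to 1.16) and *Ifit1* over *Usp18* (1.10-fold; interval, 0.945 to 1.28) were steps whose intervals reach 1.

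**Figure D2:**
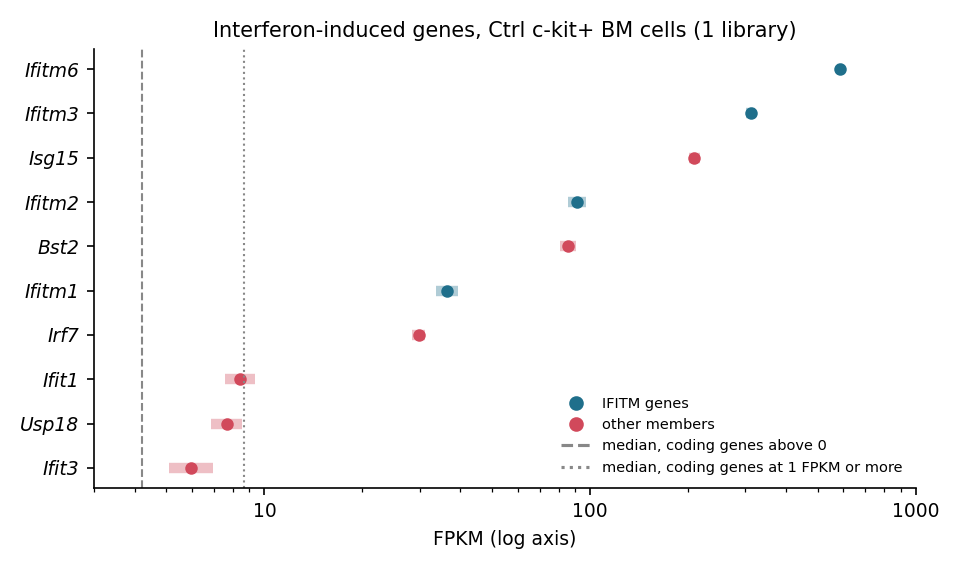
Levels of the 10 genes in the Ctrl library, in FPKM on a log axis, with points for the values and bars for 95% Wilson intervals of counting error. The lines mark the medians of protein-coding genes above 0 (4.22 FPKM) and at 1 FPKM or more (8.66 FPKM). *Ifit1*, *Usp18* and *Ifit3* lie between the lines and the other 7 genes to the right of both.

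The IFITM genes, whose products are small membrane proteins that restrict virus entry, held 74.7% of the summed FPKM of the 10. *Ifitm6* (ENSMUSG00000059108), on the minus strand of chromosome 7 between 141015699 and 141017924, reached 584.6 FPKM on 8351 fragments (95% Wilson interval, 572 to 597) and ranked 60 among all genes. Such intervals cover counting error only and not the spread between mice. *Ifitm3* (ENSMUSG00000025492), the member best known for blocking influenza virus (same strand, 141009586 to 141010770), had 311 FPKM on 3328 fragments (interval, 301 to 322). *Ifitm2* (ENSMUSG00000060591; same strand, 140954837 to 140955987) had 91.0 FPKM (interval, 85.4 to 97.0), and *Ifitm1* (ENSMUSG00000025491; plus strand, 140967221 to 140969825) had 36.4 FPKM (interval, 33.6 to 39.3). The 4 intervals were apart from one another, and *Ifitm6* was 16.1 times *Ifitm1* (interval, 14.8 to 17.5), while *Ifitm3* was 3.42 times *Ifitm2* (interval, 3.18 to 3.68). The median of the 4 was 10.5 times that of the 6 other members, but 2.71 times for fragments not divided by gene length, since the IFITM genes are short.

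The rest of the family was below 1 FPKM. *Ifitm10* had 0.675 FPKM from 51 fragments and *Ifitm7* had 0.0800 FPKM from 3 fragments. *Ifitm5*, a gene of bone-forming cells, had 0.663 FPKM from 8 fragments, with an interval (0.336 to 1.31) that spans 1 FPKM. The value of *Ifitm2* is less certain than its interval. An annotated gene on the same strand, *Gm45717*, listed at 0, covers 40.9% of its exonic bases and 29.7% of those of *Ifitm5*. How fragments on more than 1 of these genes were counted is not given in the sources used here. In all, 48.5% of the 50-base stretches of the longest *Ifitm2* transcript occur in another gene, against 10.02% for *Ifitm3*, 6.36% for *Ifitm1* and none for *Ifitm6*.

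*Isg15* (ENSMUSG00000035692), the ubiquitin-like modifier on chromosome 4 between bases 156199424 and 156200818, had 209 FPKM (interval, 201 to 217). It was the third of the 10, below *Ifitm3* and above *Ifitm2*, and its interval met neither. *Usp18* (ENSMUSG00000030107), on chromosome 6 from 121245906 to 121270917, encodes the protease that takes ISG15 off its targets and also restrains the type I interferon receptor. It had 7.65 FPKM on 337 fragments (interval, 6.88 to 8.51). *Isg15* was thus 27.3 times *Usp18* (exact interval of the 2 counts, 24.3 to 30.7), although 7.39 times without division by length and 17.3 times with the longest transcript as the length. The enzymes that attach ISG15 differed among themselves as well. *Ube2l6*, the conjugating enzyme, had 416 FPKM, which is 1.99 times *Isg15*. The activating enzyme *Uba7* had 28.6 FPKM, and the ligases *Trim25* and *Herc6* had 26.0 and 2.30 FPKM.

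*Ifit1* (ENSMUSG00000034459), which binds viral RNA lacking the cap marks of the host, lies on chromosome 19 between 34640871 and 34650009. Its level was 8.42 FPKM on 353 fragments (interval, 7.59 to 9.35). *Ifit3* (ENSMUSG00000074896), which encodes a partner of IFIT1 and lies upstream of it (34583531 to 34588731), had 5.95 FPKM on 164 fragments (interval, 5.11 to 6.94). These and *Usp18* were the lowest of the 10 genes. The order of *Ifit1* and *Usp18* is not settled beyond counting error, whereas *Usp18* was 1.29 times *Ifit3* with an exact interval of 1.06 to 1.56. Among the paralogs, *Ifit1bl2* had 5.29 FPKM, *Ifit2* 5.16 FPKM, *Ifit1bl1* 2.48 FPKM and *Ifit3b* 1.87 FPKM. *Ifit1* was 1.63 times *Ifit2* (interval, 1.40 to 1.90) and *Ifit3* 3.19 times *Ifit3b* (interval, 2.35 to 4.37), so all 6 were within an order of magnitude. *Ifit3* and *Ifit3b* are near copies, and 51.2% of the 50-base stretches in the longest *Ifit3* transcript also occur in another gene. Their levels are uncertain where fragments could not be placed on one of them.

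*Irf7* (ENSMUSG00000025498), the factor that drives type I interferon genes, lies on the minus strand of chromosome 7 between 141262706 and 141266481. Its level was 29.8 FPKM (interval, 28.4 to 31.2). It ranked 3 among the 8 IRF genes read. *Irf8*, a factor of the monocyte lineage, was highest at 46.5 FPKM, followed by *Irf5* at 38.5 FPKM. *Irf1* had 26.4 FPKM, *Irf3* 20.1 FPKM, *Irf9* 19.9 FPKM, *Irf4* 14.8 FPKM and *Irf2* 10.4 FPKM. The intervals of *Irf3* and *Irf9* overlapped and that of *Irf7* met none of the others. With the longest transcript as the length, however, *Irf7* was 0.708 times *Irf1*, so the order of these genes depends on the length used. The annotated exons of *Irf7* merge into 1 block of 3776 bases that covers its whole span, while its longest transcript has 3240 bases.

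*Bst2* (ENSMUSG00000046718), the tetherin gene on chromosome 8 between 71534255 and 71537456, had 85.6 FPKM (interval, 80.9 to 90.5). Its interval overlapped the interval of *Ifitm2*, the gene next above it, and its level was 2.35 times *Ifitm1*, the gene next below. BST2 protein is also a surface marker of plasmacytoid dendritic cells, a rare cell type with high IRF7 that makes much type I interferon. *Bst2* was 4.95 times *Siglech*, a defining gene of those cells, at 17.3 FPKM, and 1.32 times without division by length. All 7 marker genes listed for plasmacytoid dendritic cells reached 1 FPKM, against 46.8% of protein-coding genes, and together they summed to 49.7 FPKM. The median of the 7 was 6.10 FPKM, below the median of protein-coding genes at 1 FPKM or more (8.66 FPKM), and the lowest, *Ccr9*, had 1.32 FPKM. The part of these cells in the levels of *Bst2* and *Irf7* was not tested.

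The genes upstream of the members were then read by role. Of 21 interferon genes, 1 reached 1 FPKM, against 46.8% of protein-coding genes. *Ifng*, which encodes interferon-gamma of T and NK cells, had 1.86 FPKM from 38 fragments (interval, 1.35 to 2.55), and *Ifnab* had 2 fragments. The other 19 genes, including *Ifnb1* and all listed *Ifna* genes, are listed at 0. Stretches shared among the *Ifna* genes were not searched, and the handling of shared fragments is not given in the sources used here. A listed 0 for an *Ifna* gene may thus leave out fragments that fit more than 1 gene. For *Ifnb1*, a count of 0 allows up to 0.253 FPKM, so a lower level was not detectable at this depth. Interferon made elsewhere in the marrow would not be seen in this RNA.

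All 10 receptor and transducer genes read reached 1 FPKM, and 9 of them 10 FPKM, against 46.8% and 21.2% of protein-coding genes. Both chains of the type I receptor were present at like levels, *Ifnar2* at 24.5 FPKM and *Ifnar1* at 20.0 FPKM, with an order that reverses when the longest transcript is taken as the length. For the interferon-gamma receptor, *Ifngr1* had 60.7 FPKM, 3.07 times *Ifngr2* at 19.8 FPKM. *Il10rb* had 12.3 FPKM and *Ifnlr1*, of the interferon-lambda receptor, 9.88 FPKM. Of the kinases, *Jak1* had 59.1 FPKM, 4.18 times *Tyk2* at 14.1 FPKM. *Stat2* had 11.1 FPKM, below its partner *Irf9*. Of 11 genes of nucleic acid sensing, 10 reached 1 FPKM, led by the adaptor *Myd88* at 30.3 FPKM, *Tmem173* (STING) at 23.4 FPKM and the kinase *Tbk1* at 16.0 FPKM, while *Tlr3*, a sensor of double-stranded RNA, had 0.268 FPKM.

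Of 32 other genes known to be induced by type I interferon, 29 reached 1 FPKM and 15 reached 10 FPKM, with a median of 9.85 FPKM. Of protein-coding genes, 46.8% and 21.2% reached these levels. In that list, 6 genes also serve in the groups above. In FPKM none was above *Isg15*, and 3 were above the median of the 10 members, but in fragments not divided by length 3 of them, *Rsad2*, *Samhd1* and *Oas3*, exceeded *Isg15*. *Rsad2*, which encodes the antiviral enzyme viperin, was highest at 164 FPKM, 5.44 times its chromosomal neighbour *Cmpk2* at 30.1 FPKM. *Ifi27l2a* had 70.9 FPKM and *Samhd1*, which encodes an enzyme that breaks down free nucleotides, 61.1 FPKM. The GTPase genes *Mx1* and *Mx2* had 4.34 and 0.982 FPKM. *Mx2* is annotated as a polymorphic pseudogene, and its interval (0.756 to 1.27) spans 1 FPKM. *Ifi44* had 0.269 FPKM, and *Ifi44l* is listed at 0, which allows up to 0.138 FPKM. The promoter letters GAAANNGAA were in 12 of the 22 genes of this list with a RefSeq window, against 8.56% of all windows. A gene was counted here if any of its windows held them, so the 2 measures are not alike.

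**Figure D3:**
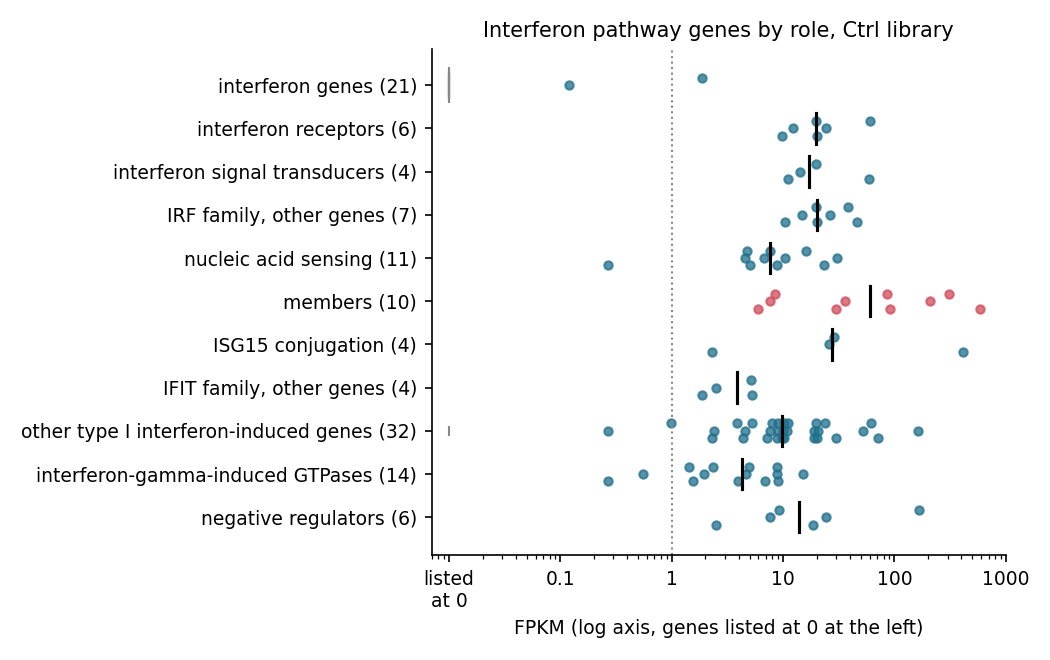
FPKM on a log axis for interferon pathway genes of the Ctrl library, grouped by role, with the number of genes in brackets, 1 point for each gene, ticks at the left for genes listed at 0 and black bars for medians above 0. The dotted line marks 1 FPKM. Of the interferon genes 19 of 21 sit at the left, the receptors lie between 9.88 and 60.7 FPKM, and the members spread from 5.95 to 584.6 FPKM around a median of 61.0.

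Position on the chromosome was not used to choose the genes, but 4 of the 10 belong to the IFITM family and lie close together on chromosome 7. With *Irf7*, 5 of the 10 lie within 312 kb of that chromosome, from *Ifitm2* to *Irf7* (140954837 to 141266481). That region holds 12 further protein-coding genes, of which 8 reached 1 FPKM and 3 reached 10 FPKM, with a median of 3.85 FPKM. The highest of them, *Rnh1*, a ribonuclease inhibitor, had 45.9 FPKM. It was below *Ifitm2*, *Ifitm3* and *Ifitm6* and above *Ifitm1* and *Irf7*. *Ifitm3* and *Ifitm6*, the most abundant of the 10, are direct neighbours on the same strand. *Ifit1* and *Ifit3* lie in a cluster on chromosome 19 (34550694 to 34650009) in which all 6 genes are IFIT genes, and those 6 ranged only from 1.87 to 8.42 FPKM.

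**Figure D4:**
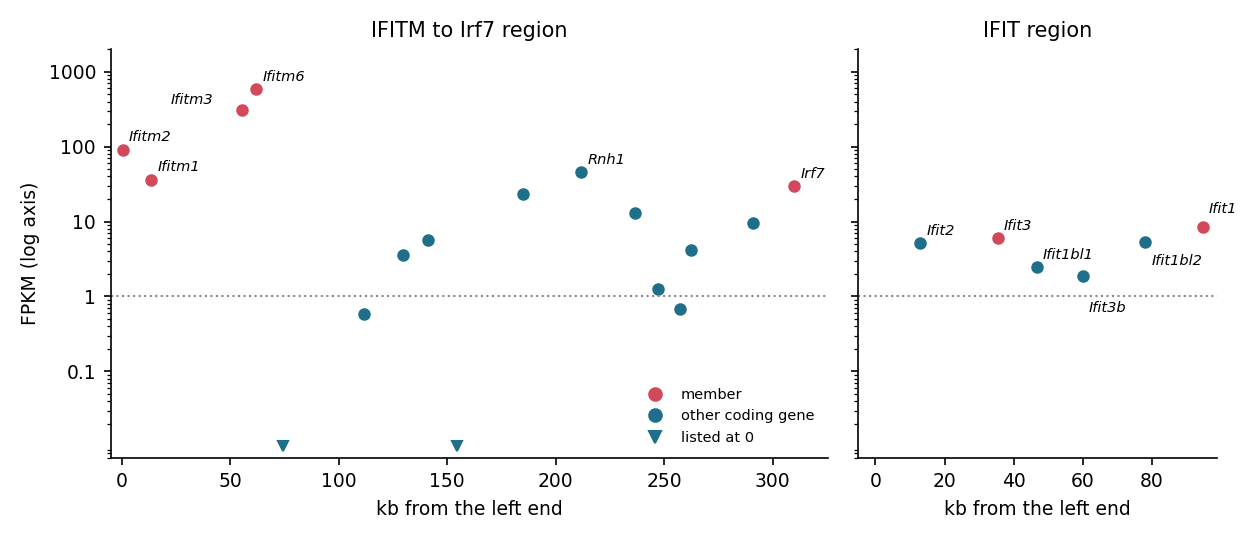
FPKM on a log axis of the protein-coding genes of both regions against the distance of the gene midpoint from the left end in kb, with members in red, other genes in blue, triangles for genes listed at 0 and a dotted line at 1 FPKM. The IFITM genes stand at the left between 36.4 and 584.6 FPKM, *Rnh1* is the highest gene that is not a member at 45.9 FPKM, and the 6 IFIT genes lie between 1.87 and 8.42 FPKM.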

How the data were processed

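The authors sequenced RNA of sorted c-kit+ BM cells on an Illumina HiSeq platform, and 1 Ctrl library was used here. The authors deposited FPKM, 1 value per Ensembl gene. Their processing notes name mm10, HISAT2 2.0.5 and featureCounts 1.5.0-p3, while the annotation, the strand setting and the handling of shared fragments are not given in the sources used here. Symbols, coordinates and exonic lengths were taken from GENCODE M21 (GRCm38), which held 54495 of the 54532 genes.

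FPKM times exonic length gave whole multiples of 1 step, within 0.01, for 96.4% of genes above 0 and for all 10 members. The share was 64.6% on chromosomes 17 to 19, where *Ifit1* and *Ifit3* lie, and 99.9% on the others, and the cause was not tested. Genes without a whole multiple, such as *Ifit1bl1* and *Tmem173*, have no interval. The whole multiples were read as fragments and set against the total of 15783891 that the step gives. This gave 95% Wilson intervals, exact intervals of ratios, and limits of 3 fragments for genes at 0. The whole multiples sum to 15899824, and those of all genes, with rounding, to 17113323. The recovery was tested on simulated data in which some gene lengths were made wrong at random and the total was the sum of the counts. Such data cover neither the mismatch of the sums nor the lower share on chromosomes 17 to 19. FPKM are lowered alike for every gene where a few genes are abundant, and they depend on the length used.

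The members and lists were chosen with earlier results of these data known. A few pathway genes are left out of the lists and not reported here. The text names all members and the genes of their families and direct pathway, and of each longer pathway list the 3 highest, the lowest and those below the minimum. Marker lists are given by counts, medians and ranges. *Siglech*, *Gm45717*, *Rnh1*, *Cmpk2*, *Mx1*, *Oas3*, *Kit*, *Ly6a*, *S100a9*, *Hba-a1*, *Hbb-bs* and *Ms4a7* were named after their values were seen. With 1 library there is no pattern over samples, so no gene was sought with a like pattern. Scripts ran in Python 3.11.15 with scipy 1.17.1, numpy 2.4.6, matplotlib 3.10.9 and pandas 2.3.3.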

Additional observations from a re-analysis of the deposited data

How the results depend on the processing

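No paired analysis was possible because there is 1 library. The members at or above the minimum were 10 at 0.1 FPKM, 1 FPKM and 10 recovered fragments, and 7 at 10 FPKM. Under the last minimum the other interferon-induced genes went from 29 to 15, and at 0.1 FPKM the interferon genes went from 1 to 2, both by the construction of the minimum. The median of the members, 61.0 FPKM, was 66.5 FPKM without the 10 most abundant genes in the total and 142 as TPM, by factors of 1.09 and 2.33 common to every gene. For fragments not divided by length, the IFITM share fell from 74.7% to 67.6%, the ratio of medians was 2.71, *Isg15* to *Usp18* was 7.39, *Irf7* ranked 2 among the IRF genes, and 3 members changed place in the order. With the longest transcript as the length, 4 members changed place and the ratio of medians was 8.59. The GAS letters, an alternative chosen after seeing the data, were in 3 windows in place of 6. With 1 library, differences between mice cannot be read from these values.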

Other observations

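GTPases induced chiefly by interferon-gamma act against microbes inside the cell. In FPKM, their median was below the lowest of the 10 members in the Ctrl library. Of 14 listed, 12 reached 1 FPKM and 1 reached 10 FPKM, against 46.8% and 21.2% of protein-coding genes, and the median was 4.28 FPKM. The order reversed for fragments not divided by length. The median of the list then lay between 229 and 349 fragments, above *Ifit3*, the lowest member, at 164 fragments. *Igtp* had 15.1 FPKM, *Irgm1* 9.06 FPKM and *Irgm2* 8.84 FPKM, while *Tgtp1* had 0.553 FPKM and *Gbp6* 0.266 FPKM. *Tgtp1* and *Tgtp2* are close copies whose fragments may not be told apart.

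Of 6 genes that restrain interferon signalling, all reached 1 FPKM, against 46.8% of protein-coding genes. *Ptpn6*, the phosphatase SHP-1 of blood cells, had 167 FPKM (95% Wilson interval, 163 to 170), *Ptpn11* 24.2 FPKM and *Socs3* 18.7 FPKM. *Usp18* and *Socs1*, which are themselves induced by interferon, had 7.65 and 2.51 FPKM, and *Pias1* had 9.21 FPKM. With the longest transcript as the length, *Usp18* was above *Pias1*, at 12.1 against 11.3 FPKM.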
